A study of Mus musculus with 10 samples.

Results

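The 8 genes Dppa2, Dppa3, Dppa4, Dppa5a, Tdgf1, Gdf3, Utf1 and L1td1 mark the germline, the inner cell mass and pluripotent stem cells of the mouse. They were followed through the reprogramming of fibroblasts toward pluripotency. The 8 were chosen by symbol from the 45706 genes in the deposited tables. All 8 were found, and all 8 passed the filter on low counts, which left 20165 genes to test. They did not move as 1 group: L1td1 and Gdf3 had risen by day 3, Tdgf1, Utf1 and Dppa5a by day 6, and Dppa2, Dppa3 and Dppa4 by day 9. At day 9, L1td1 stood at 84.9% ± 1.94 (SD, n = 2) of its level in embryonic stem cells (ESCs), whereas Dppa2 stood at 0.639% ± 0.212 (SD, n = 2). The name late markers therefore did not hold for L1td1.

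Reprogramming by Oct4, Klf4, Sox2 and Myc turns off the fibroblast programme first and turns on the pluripotency network in steps. The Dppa genes (developmental pluripotency associated) were named as a group for expression like that of Oct4 in early embryos, and they do not form 1 protein family. Dppa2 and Dppa4 are neighbouring SAP-domain proteins that bind chromatin together. Dppa3 (Stella, PGC7) is a maternal factor that protects the zygote genome from loss of DNA methylation, and Dppa5a is a KH-domain RNA-binding protein. Tdgf1 (Cripto) is the membrane-bound co-receptor of the ligand NODAL, and Gdf3 is a ligand of the TGF-beta family. Utf1 is a chromatin-bound transcription factor of pluripotent cells, and L1td1 is an RNA-binding protein derived from the LINE-1 retrotransposon.

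RNA was profiled in 5 groups with 2 libraries each. The uninduced fibroblasts (MEF) were mouse embryonic fibroblasts with a polycistronic OKSM cassette at Col1a1 and the transactivator M2rtTA at ROSA26. They were grown unsorted in MEF medium with no doxycycline. Cells of the same strain cross (C57BL/6 x 129) and genotype were induced in ESC medium with doxycycline at 1 µg/ml and ascorbic acid at 50 µg/ml for 3 days (D3, unsorted), 6 days (D6) or 9 days (D9). The medium of the D3, D6 and D9 cells also held LIF at 1000 U/ml. The D6 and D9 cells were sorted as "SSEA+", for the surface carbohydrate SSEA1. The ESC group was the single line V6.5, from the same cross by label, with no cassette. It was grown on irradiated feeder cells in medium with serum and LIF at 1000 U/ml, and was not sorted. Medium and agents changed between MEF and D3, and sorting changed between D3 and D6. Line, agents, sorting and feeders all changed between D9 and ESC. Within each of these steps, time and those changes cannot be told apart.

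Libraries held 29585876 to 38275024 estimated reads. Replicates are described as biological, but the labels do not say which came from separate cultures or embryos, so p-values measure the spread between these libraries. The groups stood apart in sex-linked RNA. Xist was at 930 to 1317 CPM in the 6 induced libraries, 0.739 and 0.793 CPM in MEF and 9.0 and 11.3 CPM in ESC. Ddx3y, on the Y chromosome, was at 0.0538 to 0.176 CPM in the induced libraries against 90.6 and 86.4 CPM in MEF and 26.1 and 26.8 CPM in ESC. The MEF libraries therefore do not carry the sex-linked RNA of the induced libraries, and the ESC libraries differ from those at D9 in both genes as well. This touches every comparison with MEF and with ESC, and its part in the results was not tested. The summed CPM of 12 fibroblast markers was 56039 and 58384 in MEF, 4734 and 4765 at D3, 571 to 772 at D6 and D9, and 7973 and 8100 in ESC, or 13.9% and 14.2% of the MEF mean. Mitochondrially encoded genes took 2.02% to 5.32% of the reads, the most at D9. Of 7 stem cell markers none was at 0 in any library. Their summed level was 8.09 and 8.32 CPM in MEF, 576 to 825 CPM in the induced libraries, and 2973 and 3036 CPM in ESC. The 7 include Pou5f1 (Oct4) and Sox2, which the cassette also carries. CPM here stands for estimated reads per library size after TMM scaling. TPM is the deposited abundance per transcript, which corrects for length.

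The 8 genes lie at 6 places in the genome (GRCm38, GENCODE annotation). Dppa4 (chr16:48283733-48294237) and Dppa2 (chr16:48303908-48319723) are neighbours on the plus strand, 9.7 kb apart. Gdf3 (chr6:122605403-122610087, minus strand) and Dppa3 (chr6:122626410-122630272, plus strand) are 16.3 kb apart. Dppa5a (chr9:78367052-78368177) and Tdgf1 (chr9:110939603-110946158) are both on the minus strand and far from each other. Utf1 (chr7:139943789-139945112) and L1td1 (chr4:98726734-98738480) are on the plus strand. RefSeq promoter sequence (GRCm38.p6) was at hand for 3 of the 8 genes, and it is shown up to the base before the gene start. L1td1 was first called at D3 and the other two at D6. Capitals mark matches to GGGNGTGG, a form of the KLF motif, since Klf4 is a cassette factor.
Tdgf1 (chr9:110946159-110946408, minus strand): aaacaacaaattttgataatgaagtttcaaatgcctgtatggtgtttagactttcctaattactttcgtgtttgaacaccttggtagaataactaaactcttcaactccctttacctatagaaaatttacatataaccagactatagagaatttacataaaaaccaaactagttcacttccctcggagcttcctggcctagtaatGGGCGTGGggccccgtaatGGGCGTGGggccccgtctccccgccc
Utf1 (chr7:139943606-139943788, plus strand): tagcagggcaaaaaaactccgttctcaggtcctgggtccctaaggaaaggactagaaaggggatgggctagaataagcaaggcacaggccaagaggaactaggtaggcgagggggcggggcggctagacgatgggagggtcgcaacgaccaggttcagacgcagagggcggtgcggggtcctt
L1td1 (chr4:98726504-98726733, plus strand): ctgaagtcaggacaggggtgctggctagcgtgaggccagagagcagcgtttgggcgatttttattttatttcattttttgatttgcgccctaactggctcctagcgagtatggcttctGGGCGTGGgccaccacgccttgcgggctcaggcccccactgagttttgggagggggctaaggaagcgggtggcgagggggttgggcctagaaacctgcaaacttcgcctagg

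Tdgf1 held 2 such matches, 45 and 26 bases before its start, L1td1 held 1, 112 bases before its start, and the Utf1 window held none. On either strand, GGGNGTGG occurred in 17.6% of 32817 RefSeq promoters of 300 bases. The 3 windows held no match to ATGCNAAT (octamer, 3.15% of promoters), ACAANG (SOX, 41.3%), AAGGTCA (ESRRB, 4.72%), CACGTG (E-box, 7.15%) or GGCGGGA (E2F, 11.3%). The 300-base windows held 7 CpG for Tdgf1, 17 for Utf1 and 14 for L1td1, with a median of 7 over all promoters. These matches are letters in a window and were not tested as binding sites.

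Levels of different genes were compared in TPM. In ESCs Dppa5a was the most abundant at 1856 ± 15.9 TPM (SD, n = 2), ahead of Tdgf1 at 306 ± 3.9 TPM (SD, n = 2). Utf1 and L1td1 both averaged 127 TPM, and their libraries overlapped. Below them came Dppa4 (42.6 TPM), Dppa2 (38.3 TPM), Gdf3 (24.7 TPM) and Dppa3 (8.82 TPM), each separated from the next. The order at D9 was different. L1td1 led at 92.3 TPM, followed by Tdgf1 at 32.0 TPM, and Utf1 (19.8 TPM) and Dppa5a (18.9 TPM) overlapped. Gdf3 was at 4.76 TPM, Dppa3 at 1.39 TPM, Dppa4 at 0.338 TPM and Dppa2 at 0.219 TPM. Dppa5a thus went from the fourth place at D9 to the first in ESCs, and Dppa3, above both Dppa4 and Dppa2 at D9, was last of the 8 in ESCs. In MEF each gene averaged at most 0.208 TPM.

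**Figure D1:**
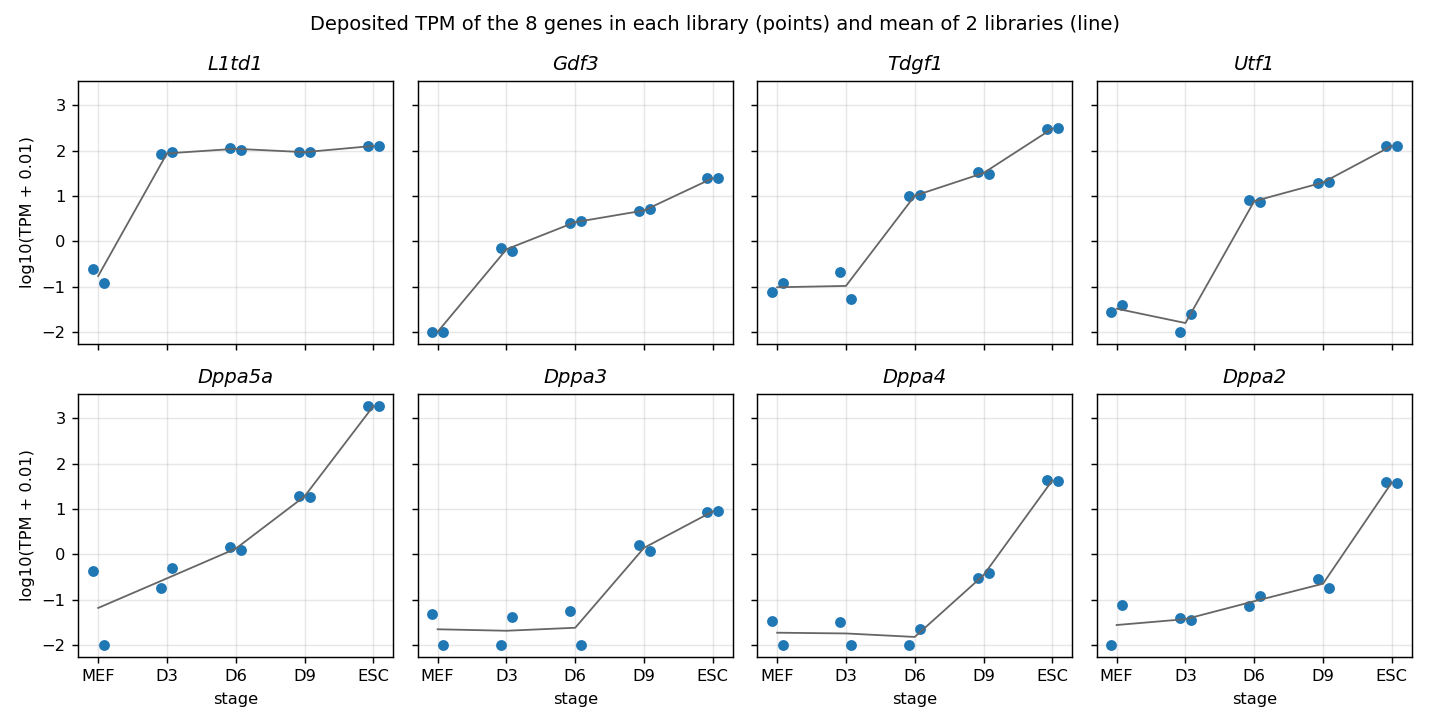
Deposited TPM of each gene on a log10(TPM + 0.01) axis against stage, with a point per library and a line through the mean log values of the 2 libraries. L1td1 reached its plateau at D3, whereas Dppa4 and Dppa2 stayed under 1 TPM to D9 and were at 36.7 to 43.4 TPM in ESC.

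L1td1 and Gdf3 were the first of the 8 to rise. L1td1 was at 0.48 and 0.64 CPM in MEF and at 411 and 407 CPM at D3. It then stayed between 407 and 528 CPM in all 8 later libraries: 513 and 489 CPM at D6, 435 and 449 CPM at D9, and 512 and 528 CPM in ESC. The rise from MEF to D3 was 9.48 on the log2 scale (SE 0.08, edgeR quasi-likelihood test, adjusted p = 2.7e-18). The groups did not overlap at any step, but the later log2 differences were 0.29 (D6 against D3), -0.18 (D9 against D6) and 0.24 (ESC against D9). All were under the fold minimum of 1 on the log2 scale, with edgeR adjusted p of 5.1e-06, 0.00089 and 2.9e-05.

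Gdf3 followed another course, with a gain at each stage. It had no read in either MEF library, then 2.88 and 2.36 CPM at D3, 10.2 and 11.1 CPM at D6, 19.4 and 21.6 CPM at D9, and 95.1 and 96.3 CPM in ESC. No group overlapped the next. Against the floor of 3 reads over the MEF group, Gdf3 was at least 52.6-fold higher at D3, at least 412-fold higher at D9 and at least 1910-fold higher in ESC. It rose by a further 2.01 (SE 0.11) on the log2 scale from D3 to D6 (edgeR adjusted p = 4.8e-09). From D6 to D9 the difference of 0.95 (SE 0.08, edgeR adjusted p = 7.7e-07) fell just short of the fold minimum. It passed at 1.01 without D6 replicate 2 and at 1.02 without D9 replicate 1. At D3 these were 2 of the 8 genes called higher against 14.6% of all genes tested, and none was called lower. Scaling by library size without TMM gave 18.9% higher and 12.3% lower genes in that comparison, in place of 14.6% and 14.5%. On log2(TPM + 1) values in limma, which compress low levels, the Gdf3 difference was 0.73, and L1td1 was then the 1 gene called.

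Tdgf1 and Utf1 rose sharply between D3 and D6, and Dppa5a by less. The CRIPTO gene Tdgf1 was at 0.148 and 0.152 CPM in MEF and at 0.269 and 0.148 CPM at D3, so these groups overlapped. It was at 27.9 and 27.5 CPM at D6, 99.6 and 98.9 CPM at D9, and 827 and 847 CPM in ESC. Its gain was 7.01 (SE 0.12) on the log2 scale from D3 to D6 (edgeR adjusted p = 5.4e-15) and 1.84 (SE 0.04) from D6 to D9 (edgeR adjusted p = 9.4e-13).

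Utf1 had 3 reads in MEF and 1 read at D3 over both libraries of each group. It then reached 16.9 and 15.4 CPM at D6, 42.5 and 46.3 CPM at D9, and 251 and 264 CPM in ESC. The D6 level was 1147 times the D3 level, with an exact 95% counting interval of 205 to 45344 that reflects the single read at D3. From D6 to D9 it rose by 1.46 on the log2 scale (SE 0.07, edgeR adjusted p = 7.2e-10). Tdgf1 and Utf1 thus took their large step at the time when sorting for SSEA1 began.

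Dppa5a was near its floor until D6. It had 9 reads in MEF, all in replicate 1 (0.33 and 0 CPM), and was at 0.135 and 0.384 CPM at D3, which overlaps MEF. It was at 1.15 and 0.968 CPM at D6, 16.2 and 15.9 CPM at D9, and 1398 and 1441 CPM in ESC. The step from D3 to D6 was 2.05 on the log2 scale (SE 0.47, edgeR adjusted p = 0.0019), and the step from D6 to D9 was 3.92 (SE 0.18, edgeR adjusted p = 1e-09). The first of these calls was lost with DESeq2 (adjusted p = 0.072) and with limma on log2(TPM + 0.1) (adjusted p = 0.076). On log2(TPM + 1) in limma it was 0.82 and the D6 against MEF difference was 0.96, both under the fold minimum. Without MEF replicate 1, the D3 level was called above MEF, at 6.16 on the log2 scale (edgeR adjusted p = 0.0047). From D3 to D6, 4 of the 8 genes were called higher (Utf1, Tdgf1, Dppa5a and Gdf3) against 9.26% of all genes tested. None was called lower, against 10.2% of all genes.

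Dppa3, Dppa4 and Dppa2 were first called above MEF at D9, at low levels. On log2(TPM + 1) in limma the D9 calls of Dppa4 (0.4 against MEF) and Dppa2 (0.24) fell under the fold minimum. Dppa3, the guard of DNA methylation in the zygote, had 1, 1 and 2 reads in MEF, D3 and D6 over both libraries. It was at 1.74 and 1.39 CPM at D9 and at 9.01 and 9.51 CPM in ESC. The D9 level was 51.7 times the D6 level (exact 95% counting interval 14.0 to 432), a log2 difference of 5.54 (SE 0.58, edgeR adjusted p = 3.7e-06), and 8.73 without D6 replicate 1, which holds both D6 reads. Dppa3 was thus clearly separated at D9 and modest in ESCs.

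Dppa4 was at 0.0739 and 0 CPM in MEF, 0.0538 and 0 CPM at D3, and 0 and 0.0302 CPM at D6, groups that overlap. It was at 0.836 and 1.11 CPM at D9 and at 113 and 111 CPM in ESC. Its D9 level was 66.4 times its D6 level (exact 95% counting interval 11.5 to 2660), and the log2 difference was 5.74 (SE 0.66, edgeR adjusted p = 1e-05). It was 0.41 on log2(TPM + 1) in limma, under the fold minimum, and 8.08 without D6 replicate 2, which holds its only D6 read. Its partner Dppa2 was at 0 and 0.244 CPM in MEF, 0.108 and 0.0887 CPM at D3, 0.235 and 0.393 CPM at D6, 1.06 and 0.657 CPM at D9, and 139 and 130 CPM in ESC. MEF overlapped D3 and D6, and the later groups did not overlap.

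The D6 against D3 difference of Dppa2, 1.63 on the log2 scale (SE 0.74), missed the threshold in edgeR (adjusted p = 0.076). It passed with DESeq2 (adjusted p = 0.023), with no low-count filter (edgeR adjusted p = 0.014), with a filter at 10 CPM (edgeR adjusted p = 0.048), and without MEF replicate 1 or 2 (edgeR adjusted p = 0.029 and 0.028). The D9 against D6 difference was 1.41 (SE 0.44, edgeR adjusted p = 0.025). That call was lost without D6 replicate 1 and without D9 replicate 1 (edgeR adjusted p = 0.17 in both) and with limma on log2(TPM + 0.1) (adjusted p = 0.086). Without MEF replicate 2, which holds all 8 Dppa2 reads of that group, the D6 level was called above MEF, at 6.43 on the log2 scale (edgeR adjusted p = 0.0049). The start of the Dppa2 rise therefore depended on single libraries, and its level up to D9 was near the limit of detection. From D6 to D9, 6 of the 8 genes were called higher, against 5.18% of all genes tested, and none lower, against 2.68%. Gdf3 also rose, by 0.95 on the log2 scale, short of the fold minimum, and L1td1 was not called.

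**Figure D2:**
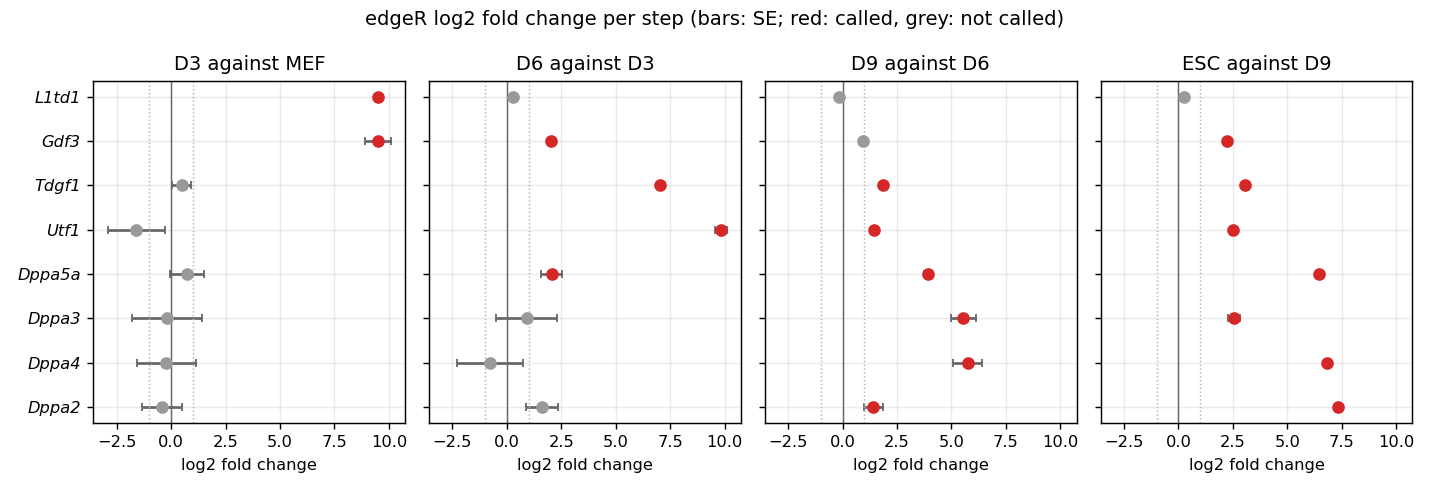
Log2 fold change of each gene in the 4 successive steps (edgeR, bars are SE, dotted lines mark the fold minimum of 1), with called genes in red and the others in grey. L1td1 had its only large step at D3, and Dppa2, Dppa4 and Dppa5a had steps of 7.32, 6.82 and 6.47 between D9 and ESC.

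Measured as a percent of the ESC mean in CPM, the 8 genes fell into 3 ranges at D9. L1td1 had already reached 78.7% ± 0.535 (SD, n = 2) at D3 and 96.3% ± 3.3 (SD, n = 2) at D6. Gdf3 (21.4% ± 1.68), Utf1 (17.3% ± 1.03), Dppa3 (16.9% ± 2.65) and Tdgf1 (11.9% ± 0.0574) formed the middle range at D9 (SD, n = 2 each). The libraries of Utf1 and Dppa3 overlapped within it. Dppa5a (1.13% ± 0.0185), Dppa4 (0.866% ± 0.173) and Dppa2 (0.639% ± 0.212) were lowest, and Dppa4 and Dppa2 overlapped (SD, n = 2 each). At D6, Gdf3 was at 11.1%, Utf1 at 6.28% and Tdgf1 at 3.3%, while the 4 Dppa genes were at 0.0135% to 0.317%. Deposited TPM gave a lower percent at D9, 72.9% for L1td1, 10.4% for Tdgf1 and 1.02% for Dppa5a. The summed fibroblast markers were at 13.9% and 14.2% of the MEF mean in ESC and at 1.05% and 0.998% at D9. The part of feeder RNA in these percents of the ESC level was not tested.

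**Figure D3:**
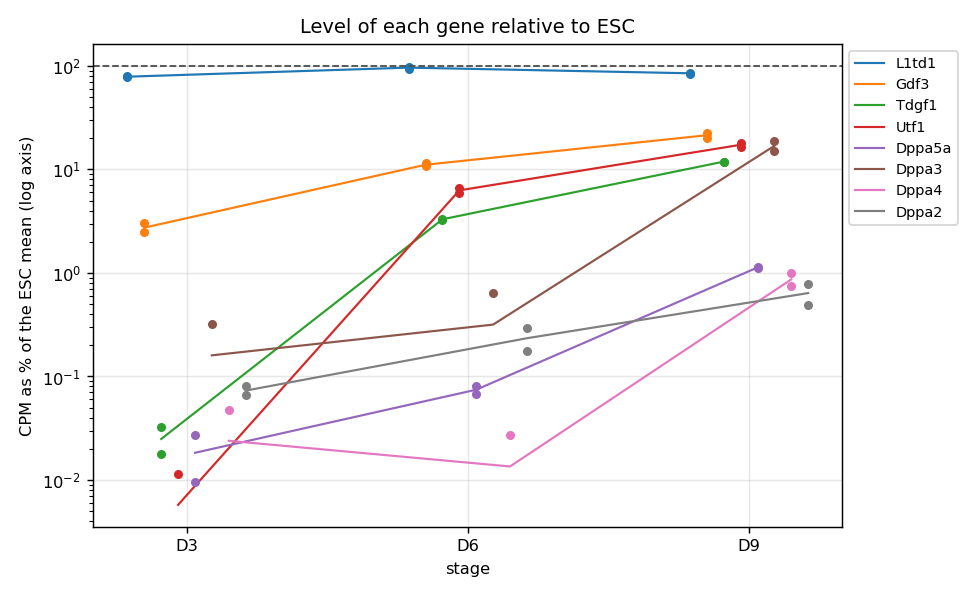
CPM of each gene as a percent of its ESC mean (log axis) at D3, D6 and D9, with a point per library and a line through the mean of both libraries; libraries with no reads have no point, and the dashed line is the ESC level. At D9, L1td1 was at 84.9%, 4 genes were at 11.9% to 21.4% and 3 Dppa genes were at 0.639% to 1.13%.

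Dppa2, Dppa4 and Dppa5a differed widely between D9 and ESC. This step was the largest of the 4 for Dppa2 and Dppa5a, whereas for Dppa4 it cannot be ranked against the step from D6 to D9, which rests on 1 read at D6. Dppa2 was 161 times higher in ESC (exact 95% counting interval 125 to 211), a log2 difference of 7.32 (SE 0.14, edgeR adjusted p = 7.5e-15). The log2 differences were 6.82 (SE 0.12) for Dppa4 and 6.47 (SE 0.08) for Dppa5a, with edgeR adjusted p of 2.5e-15 and 1.2e-16. The other genes called were closer to ESC at D9, with log2 differences of 3.08 for Tdgf1, 2.57 for Dppa3, 2.53 for Utf1 and 2.22 for Gdf3. The median log2 difference of the 8 genes was 2.82, beside 0.0 over all genes tested. In this comparison 7 of the 8 genes were called higher, all but L1td1, against 18.6% of all genes tested, and none lower, against 14.3%. In bulk RNA, fewer cells of a type and less RNA per cell cannot be told apart.

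RNA of other cell types also differed between D9 and ESC. The 12 fibroblast markers summed to 571 and 601 CPM at D9, with Lum at 0, and to 7973 and 8100 CPM in ESC. The 8 genes themselves were at 0 to 0.64 CPM in MEF. The sum of 8 two-cell-like markers such as Zscan4c, genes of the cleavage-stage embryo, was 0 to 0.0964 CPM in the 8 libraries before ESC, with 5 to 8 of them at 0. It was 129 and 126 CPM in ESC, with none at 0. Dppa2 and Dppa4 are known as activators of such genes in ESCs, and the part of these cells in the ESC levels was not tested. The 6 germ cell markers summed to 50.3 and 53.7 CPM at D9 and 124 and 123 CPM in ESC. Most of the D9 sum was Tfap2c, which averaged 48.3 CPM at D9 and 34.7 CPM in ESC. Of the 6, 4 were called higher in ESC and 0 lower, beside 18.6% and 14.3% of all genes tested. Dazl averaged 0.0413 CPM at D9 and 30.2 CPM in ESC, and Ddx4 0.0861 and 32.1 CPM. The 6 primed epiblast markers summed to 145 and 150 CPM at D9 and 164 and 169 CPM in ESC. Within this last sum, 4 genes were called higher and 1 lower in ESC, beside 18.6% and 14.3% of all genes tested. Pou3f1 averaged 99.2 CPM at D9 and 13.2 CPM in ESC, and Otx2 0.468 and 12.4 CPM. The 6 extraembryonic endoderm markers summed to 12.8 and 15.2 CPM at D9, with Foxa2 at 0, and to 24.2 and 22.7 CPM in ESC. Their part in the result was not tested.

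Whether the log2 difference of a gene was larger between D9 and ESC or between MEF and D9 was tested as 1 contrast. It was the ESC against D9 difference minus the D9 against MEF difference. A negative value does not mean a larger CPM difference between MEF and D9 than between D9 and ESC. The ESC group is a separate line, so its difference from D9 is not a change followed in the same cells. Tdgf1, Utf1, Gdf3 and Dppa3 were at 11.9% to 21.4% of their ESC level at D9. L1td1 had a value of -9.36 (SE 0.1, edgeR adjusted p = 1.1e-17), so nearly its whole difference between MEF and ESC was present by D9. Tdgf1 was at -6.26 (SE 0.17, edgeR adjusted p = 1.9e-13) and Utf1 at -7.16 (SE 0.3, edgeR adjusted p = 3.1e-11). Gdf3 was at -10.23 and Dppa3 at -3.68 (edgeR adjusted p = 9.9e-10 and 0.0037), but these and the Utf1 size rest on 0 to 3 MEF reads and on the small count that edgeR adds. Dppa3 was no longer called with limma on log2(TPM + 0.1) (adjusted p = 0.089), nor Gdf3 on log2(TPM + 1), where it was at -0.37. The value was positive for Dppa2 at 4.71 (SE 1.06, edgeR adjusted p = 0.0012), the opposite direction, yet it was -0.52 without MEF replicate 2 (edgeR adjusted p = 0.67). Dppa4 (2.08, edgeR adjusted p = 0.22) and Dppa5a (-0.23, edgeR adjusted p = 0.74) did not pass. In limma Dppa4 was called higher, at 4.65 on log2(TPM + 0.1) (adjusted p = 1.2e-05) and 4.63 on log2(TPM + 1) (adjusted p = 3.5e-08), and Dppa5a was called at 2.48 on log2(TPM + 1) (adjusted p = 0.0003). Dppa5a was called at -5.66 without MEF replicate 1 (edgeR adjusted p = 0.0066), and Dppa4 was then -1.29 (edgeR adjusted p = 0.52). In this contrast 1 of the 8 genes was called higher and 5 lower, against 22.2% and 26.5% of all genes tested. Limma gave other shares of all genes, 27.5% higher and 19.8% lower on log2(TPM + 0.1), and 19.4% and 13.3% on log2(TPM + 1).

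Against MEF as the common reference, 5 of the 8 genes were higher at D6 (21.6% of all genes tested), 8 at D9 (24.1%) and 8 in ESC (25.5%). None was lower in any of the 3. In these and the 4 successive steps, DESeq2 and limma called 0 of the 8 lower as well. At an unadjusted p under 0.05 in edgeR with no fold minimum, 1 was lower, L1td1 from D6 to D9. These comparisons share the MEF libraries. Scaling by library size without TMM gave 28.3% higher and 15.6% lower genes at D6, 30.9% and 16.3% at D9, and 32.5% and 15.6% in ESC, in place of 18.9%, 19.8% and 20.6% lower. On log2(TPM + 1) values, limma called 10.2% of genes higher at D9 and 12.7% lower. The median log2 difference of the 8 genes was 5.14 at D6, 8.02 at D9 and 11.89 in ESC, beside 0.16, 0.19 and 0.1 over all genes tested. Since genes at 0 to 3 MEF reads enter these medians, they depend on the count edgeR adds. The ESC level was 917 times the MEF level for L1td1 (exact 95% counting interval 656 to 1324) and 5573 times for Tdgf1 (2935 to 12187). Dppa5a in ESC was 9449 times its MEF level (4977 to 20665), which rests on the 9 reads in MEF replicate 1. These intervals cover counting error only.

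Genes beside the members did not all follow them. Within 100 kb of the 8 genes lie 34 other protein-coding genes, of which 26 were tested. From D9 to ESC, 15 of the 26 were higher (18.6% of all genes tested) and 3 lower (14.3%), with a median log2 difference of 1.62 beside 0.0 over all genes. On chromosome 6, Gdf3 and Dppa3 lie between Apobec1, an RNA-editing enzyme 3.0 kb from Gdf3, and Nanog, a core pluripotency factor 77.2 kb from Dppa3. Nanog was at 0.85 and 1.37 CPM in MEF, 1.35 and 2.6 CPM at D3, 24.99 and 26.59 CPM at D6, 69.2 and 71.2 CPM at D9, and 522 and 528 CPM in ESC. Nanog thus rose after Gdf3 and before Dppa3. Apobec1 was at 4.36 and 3.93 CPM in MEF, a mean of 42.8 CPM at D3, 75.2 and 76.3 CPM at D6, and 11.3 and 13.3 CPM in ESC. Like Gdf3, it was called higher at D3 than in MEF (3.37 on the log2 scale, edgeR adjusted p = 1.1e-13). From D9 to ESC, Apobec1 fell by 2.36 on the log2 scale while Gdf3 rose by 2.22. Slc2a3, the glucose transporter GLUT3, differed from MEF by 1.96 on the log2 scale at D3, and Mfap5, a matrix protein gene, by -3.07.

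**Figure D4:**
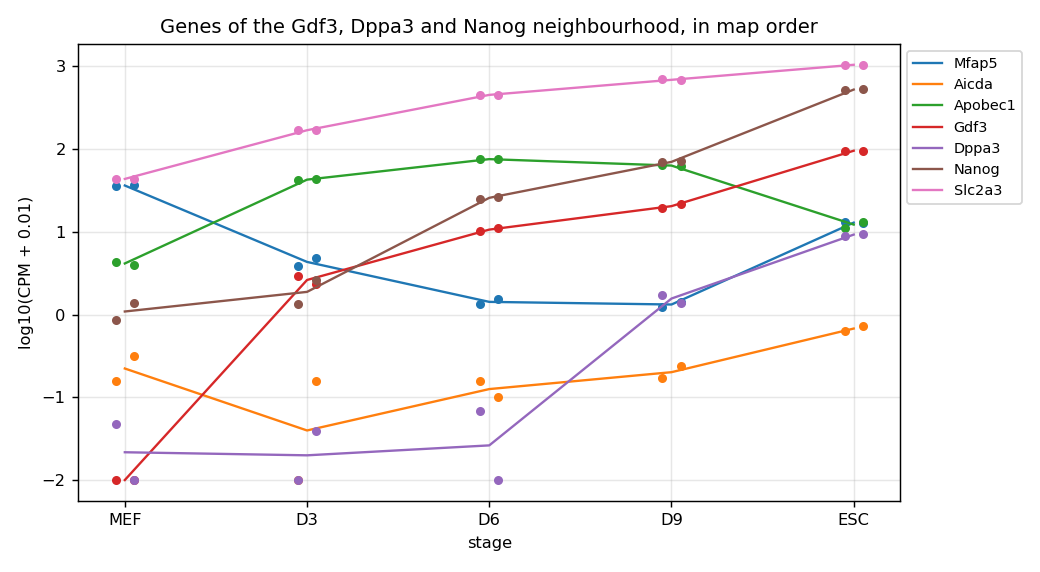
Level of 7 genes of the chromosome 6 neighbourhood on a log10(CPM + 0.01) axis against stage, with a point per library and a line through the means of the plotted log values, listed in map order. Gdf3 and Apobec1 rose at D3, Nanog at D6 and Dppa3 at D9, while Apobec1 was highest at D6 and fell in ESC.

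Near Dppa5a, the maternal-effect gene Ooep (7.9 kb away) was at 0.517 and 0.549 CPM in MEF, 1.56 and 1.39 CPM at D6, 3.18 and 2.27 CPM at D9, and 89.9 and 90.2 CPM in ESC. Its log2 difference was 5.07 from D9 to ESC, beside 6.47 for Dppa5a. Lrrc2, 5.4 kb from Tdgf1, was at 1.0 and 1.27 CPM at D6, when Tdgf1 was at 27.9 and 27.5 CPM, and at 34.4 and 33.1 CPM in ESC. Kndc1, 2.3 kb from Utf1, had no MEF read and was at 0.764 and 0.544 CPM at D6, 3.18 CPM in both D9 libraries, and 9.66 and 9.43 CPM in ESC. Inadl and Kank4, on either side of L1td1, also rose from MEF but did not hold their level as it did. Kank4 averaged 5.92 CPM in MEF, was highest at D3 with a mean of 103.5 CPM, and averaged 16.15 CPM in ESC. Inadl averaged 19.07 CPM in MEF, 27.87 CPM at D3, 75.2 CPM at D9 and 9.79 CPM in ESC. Dppa4 and Dppa2 have no other tested gene within 100 kb.

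Transcripts of 4 members were listed in more than 1 form. In the 8 libraries from D3 on, L1td1-002 took 75.1% to 80.7% of the L1td1 reads and L1td1-004 took 16.0% to 21.3%. From D6 on, Tdgf1-001 took 91.4% to 94.6% of the Tdgf1 reads. Dppa4-202 took 96.2% (exact 95% binomial interval 95.6 to 96.8) and 95.3% (94.6 to 95.9) of the Dppa4 reads in ESC. Its share at D9 was 64.5% (40.6 to 79.8) and 92.9% (81.3 to 98.6), on 25.6 and 44.3 reads. Dppa3 was split: Dppa3-001 took 49.7% (43.9 to 55.4) and 57.2% (52.0 to 62.5) in ESC. At D9 it took 22.8% (12.04 to 35.6) and 59.8% (45.9 to 73.0), a wide spread on 54 and 55 reads. The main form of L1td1 and Tdgf1 was therefore the same at each induced stage where reads sufficed. These shares are model estimates from short reads, and the intervals do not cover the error of assigning reads.

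Several members have near copies in the genome, so their reads could be split or gained. Of the 50-base words of the main transcript, 38.6% for Dppa5a, 36.7% for Dppa2, 35.9% for Dppa4, 17.7% for Dppa3 and 12.5% for Tdgf1 also occur in another annotated gene. The share was 2.02% for Gdf3, 1.62% for L1td1 and 0 for Utf1. The pseudogene Tdgf1-ps1 held 10.03% to 10.45% as many reads as Tdgf1 at D9 and in ESC, so the ratio held while Tdgf1 rose. It held 6.66% and 11.4% at D6. Copies of Dppa2 held 4.75% and 8.04% as many reads as Dppa2 in ESC, and copies of Dppa4 7.83% and 8.86%. Where the members were low the shares were larger, 30.1% and 22.7% for Dppa2 at D6 on 7.7 and 13.0 reads, and 21.3% and 8.29% for Dppa4 at D9. The genes that share words with Dppa5a, mostly Pigp, held 426 to 759 reads in every library, and 651 and 759 at D3 against 514 and 524 at D6, when Dppa5a had 38.6 and 32.4 reads. The levels of Dppa5a, Dppa2, Dppa3, Dppa4 and Tdgf1 are thus uncertain by what such copies took, and their part in the low levels was not tested.

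Related pathways were described by lists. Of 9 tested germline and inner cell mass genes of the Dppa kind and relatives, 8 were higher in ESC than at D9 (18.6% of all genes tested). Their median log2 difference was 5.07, beside 0.0 over all genes tested. The top was Dazl, a germ cell RNA-binding protein (9.35), and the bottom was Tdh, threonine dehydrogenase (-0.55). From D6 to D9, 2 of the 9 were called higher (5.18% of all genes), Tex19.1 and Khdc3. Khdc3, an oocyte complex protein, was at 0.129 and 0.227 CPM at D9 and at 33.8 and 37.8 CPM in ESC, much like Dppa4 and Dppa2 in its course. In the NODAL and CRIPTO pathway, to which Tdgf1 and Gdf3 belong, 18 genes were tested. At D3, 4 were higher and 7 lower than in MEF (14.6% and 14.5% of all genes tested), with a median of -0.44 beside 0.08. From D3 to D6, 4 were called higher and 4 lower (9.26% and 10.2% of all genes), with a median of -0.09 beside 0.03. In ESC 7 were higher and none lower than at D9 (18.6% and 14.3%), with a median of 0.73 beside 0.0. At an unadjusted p under 0.05 in edgeR, 5 of them, Smad3 and Acvr2a among them, were lower in ESC, and DESeq2 and limma called 0 lower. The ligand Nodal was not detected in MEF and averaged 0.818 CPM at D3, 12.6 CPM at D6, 16.2 CPM at D9 and 52.6 CPM in ESC. Foxh1, the nuclear partner of SMAD2 in this pathway, averaged 0.101 CPM at D3 and 4.12 CPM at D6, the stage at which Tdgf1 averaged 27.7 CPM. The NODAL inhibitor Lefty1 averaged 2.6 CPM at D9 and 96.5 CPM in ESC. Bmp4 had the lowest difference from D3 to D6, averaging 30.2 CPM at D3 and 2.77 CPM at D6. Inhba had the largest difference from D9 to ESC, averaging 0.385 CPM at D9 and 33.5 CPM in ESC. It averaged 74.4 CPM in MEF, and the part of feeder RNA in its ESC level was not tested.

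Among 20 core and naive pluripotency genes, 13 were called higher and 2 lower at D6 than at D3, beside 9.26% and 10.2% of all genes tested. The share called lower was near that of all genes. From D6 to D9, 10 were called higher and none lower, beside 5.18% and 2.68%. At an unadjusted p under 0.05 in edgeR 4 were lower in that step (Klf4, Pou5f1, Sox2 and Tbx3), and DESeq2 and limma called 0 lower. In ESC 17 were higher and 2 lower than at D9, beside 18.6% and 14.3%. Their median log2 differences were 3.48, 0.99 and 2.02. The 20 include Pou5f1 (Oct4), Sox2 and Klf4, which the cassette also carries. Reads from the cassette and from the genes themselves were not told apart. The early prediction set Esrrb, Utf1, Lin28a and Dppa2 is a group named for marking cells on the way to pluripotency. Of these, 0 of 4 were called at D3 in edgeR, DESeq2 or limma. In edgeR 14.6% of all genes tested were higher and 14.5% lower in that step. At an unadjusted p under 0.05 in edgeR, 1 of the 4 differed, Lin28a, with a log2 difference of -2.55 (adjusted p = 0.057) that rests on 1 read at D3 and 6 reads in MEF. From D3 to D6, 3 of 4 were called higher, all but Dppa2, beside 9.26% of all genes. All 4 were called higher at D9 than at D6, beside 5.18%, and in ESC than at D9, beside 18.6%. Of 9 DNA methylation genes that act beside Dppa3, 3 were higher and 1 lower in ESC than at D9, beside 18.6% and 14.3% of all genes tested. Dnmt3l had the largest difference from D9 to ESC at 8.16 on the log2 scale, and Tet3 had the lowest at -2.45. Uhrf1, which recruits the maintenance methyltransferase and is bound by DPPA3, averaged 413 CPM at D9 and 358 CPM in ESC, a log2 difference of -0.21.

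The 2 genes most like each member over the 10 libraries were found by the root mean square difference of centred log2 CPM among 9563 genes. The likeness is a description over libraries of 5 groups. Esrrb and Sall4, both pluripotency transcription factors, were nearest to Tdgf1 (0.644 and 0.734) and to Utf1 (0.72 and 0.822). L1td1 was nearest to Fgf4 (0.493) and Pipox (0.698), and Gdf3 to Fbxo15 (0.484) and Nodal (0.665). Dppa2 was nearest to Hsf2bp (0.595) and Gm13242 (0.604), and Dppa4 to Zfp936 (0.687) and Mageb16 (0.688). For Dppa3 they were Lin28b (0.696) and Phlda2 (0.852), and for Dppa5a Trap1a (1.17) and Lin28a (1.22), the least close. Pearson's r of these 16 pairs was 0.971 to 0.997. With a prior count of 0.5 in place of 2, 11 of the 16 genes were the same.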

How the data were processed

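RNA-seq libraries were made with a stranded poly(A) kit and read as single ends, per the labels' protocols. The authors deposited 1 table per library that lists, for every transcript, its estimated count and its TPM. The tables were made with Salmon 0.8.2 on mm10, per the submitters' processing notes. The annotation release is not given in the sources used here. Effective lengths were the same in all 10 tables. Counts and TPM were summed per gene by the symbol and gene ID in the deposited names, and counts were rounded to whole numbers. The groups come from the sample titles. The members and all lists were chosen with earlier results of these data known.

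The main test was the edgeR 4.0.16 quasi-likelihood test (R 4.3.3) on all 10 libraries, with filterByExpr (minimum count 10, minimum total 15), TMM scaling and a mean per group. A call needed a Benjamini-Hochberg adjusted p under 0.05 over all genes tested and an absolute log2 difference of at least 1, in 8 comparisons. SE is the absolute log2 difference over the square root of F. The common biological coefficient of variation was 3.75%. An exact permutation test of 2 libraries against 2 cannot go below p = 0.333 and was not used. The tests were checked on simulated counts with known changes. Changes were set only in the ESC group and in genes with a mean of at least 20 reads at D6. The check therefore does not cover genes near 0 reads. Replicate pairs differed beyond sampling noise (chi-square per degree of freedom 2.91 to 5.43). Alternatives were DESeq2 1.42.0, limma 3.58.1 on log2(TPM + 1) and log2(TPM + 0.1), other filters and scalings, only the groups compared, no fold minimum, a replicate block, leaving out each library and, chosen after seeing the data, adding the reads of Tdgf1-ps1 to Tdgf1. Coordinates are from GENCODE M21, which holds 98.8% of the gene IDs. Named genes other than the members were the examples with the largest and smallest difference in a list, genes within 100 kb, and the 2 genes most like a member among those with at least 20 CPM in 1 group. Khdc3, Tex19.1, Foxh1, Lefty1, Nodal and Uhrf1 were chosen from the lists after their values were seen.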

Additional observations from a re-analysis of the deposited data

How the results depend on the processing

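Counts of members called kept within 1.5 times of the main count except in these cases. On log2(TPM + 1) in limma, 1 gene was higher at D3 than in MEF. With no fold change minimum, 1 gene (L1td1) was lower at D9 than at D6. For the ESC against D9 difference minus the D9 against MEF difference, limma gave 2 genes higher on log2(TPM + 0.1), and 3 higher and 3 lower on log2(TPM + 1). In that contrast Dppa5a turned to 0.04 with DESeq2, 0.23 with limma on log2(TPM + 0.1) and 2.48 on log2(TPM + 1), and Dppa3 to 0.82 on log2(TPM + 1). The cause was not tested.

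Leaving out each library in turn, the number of members higher in that contrast was 0 to 1, and the log2 values ranged from -1.29 to 3.14 for Dppa4, -0.52 to 5.56 for Dppa2 and -5.66 to 0.89 for Dppa5a. The other differences that changed direction concerned genes near 0 reads. For D3 against MEF they ranged from -2.47 to 2.30 for Dppa3, -0.02 to 0.83 for Tdgf1, -3.32 to 3.14 for Dppa4, -0.39 to 6.16 for Dppa5a and -1.28 to 4.80 for Dppa2. For D6 against D3 they ranged from -3.12 to 2.33 for Dppa4 and -2.27 to 3.19 for Dppa3. For D6 against MEF they ranged from -2.47 to 3.22 for Dppa3 and -3.34 to 2.36 for Dppa4.

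The replicate block used the numbers in the titles. It left every count of members as it was (2, 4, 6 and 7 higher in the 4 successive steps, 1 higher and 5 lower in the contrast above) and changed no call of a member. Deviations of libraries with the same number had a mean correlation of 0.0001 (-0.02 to 0.022 over 10 pairs of groups), so the numbers give no sign of pairing. Scaling by library size without TMM moved the median of all genes from 0.08 to 0.285 at D3, from 0.158 to 0.431 at D6, from 0.193 to 0.482 at D9 and from 0.099 to 0.438 in ESC, each against MEF. Levels under about 1 CPM rest on few reads and limit what can be said of Dppa2, Dppa3 and Dppa4 before D9.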
